A study of Mus musculus with 4 samples.

Results

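Homing receptors of the chemokine family decide which tissue a circulating T cell can enter, and 8 of them are described here: CCR7, CXCR5, CXCR3, CXCR6, CCR2, CCR4, CCR9 and CXCR4. They were chosen by name, as the entries whose gene symbol equals one of these 8, out of 64253 entries in each deposited table, and all 8 were found. Each is a receptor with several membrane-spanning helices that signals through inhibitory G proteins, which drive integrin activation and directed migration along a chemokine gradient. CCR7 and CXCR5 guide lymphocytes into lymph nodes and follicles, CXCR3, CXCR6 and CCR2 into inflamed or barrier tissue, CCR4 into skin and CCR9 into the small intestine, and CXCR4 holds cells in bone marrow and other sites rich in CXCL12. Naive and central memory T cells carry CCR7 and lose most of it as they become effectors, while CXCR3, CXCR6 and CCR2 are typical of antigen-experienced CD8+ T cells.

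RNA came from CD8+ T cells with high CD11a, the integrin alpha L chain that marks antigen-experienced cells, sorted from the blood of patients treated with an antibody that blocks PD-1. There were 4 groups of 1 library each: a responder after therapy, a non-responder after therapy, a responder before therapy and a non-responder before therapy. All 4 libraries carry the same treatment schedule, 4 doses per cycle at intervals of 3 weeks. The group labels give response and time, the design text names 2 cohorts, and nothing in the labels says that the before and after libraries come from the same patients. The titles of both libraries from before therapy also carry a tag for PD-1-positive cells, and whether all 4 libraries were gated alike on PD-1 is not given, so time and gate cannot be told apart. One treatment label places every sample after a cycle of therapy, in conflict with the group label, which was followed. With 1 library per group the differences below have no replicate check, and the labels' organism entry says mouse whereas all entries are human Ensembl genes.

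Totals were 129773591 counts in the responder after, 115446087 in the non-responder after, 78912300 in the responder before and 65500644 in the non-responder before. Sort markers were present in every library, with CD8A at 1576 CPM (counts scaled to a common library total) in the responder after, 949 CPM in the non-responder after, 1115 CPM in the responder before and 850 CPM in the non-responder before. PDCD1, which encodes PD-1, stood at 29 CPM in the responder after against 7.9 CPM in the non-responder after, and at 31.6 CPM in the responder before against 4.9 CPM in the non-responder before. Markers of other blood cells were also counted. The 10 monocyte markers summed to 1781, 8460, 96.5 and 152 CPM in the responder after, the non-responder after, the responder before and the non-responder before, with none at 0 in any library. CD4 itself stood at 11.6 CPM in the responder after against 94.9 CPM in the non-responder after, and at 4.5 CPM in the responder before against 4.73 CPM in the non-responder before.

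Levels are CPM scaled with TMM factors, a normalisation that centres the ratios of most genes, and each interval is a 95% exact interval for counting error alone. A ratio is given as log2 of the first over the second library with a prior count of 0.5. A gene was called higher or lower in a pair when it reached 5 CPM in either library and a ratio of at least 2-fold. In the responder over the non-responder, 5.97% of all genes with 5 CPM were higher and 8.74% lower by that rule after therapy, and 12.3% and 8.51% before therapy. After over before, the shares were 8.64% higher and 4.61% lower in responders, and 16.3% and 7.56% in non-responders. CXCR4 was the most abundant member per length in every library, CCR9 never reached 5 CPM, and CCR2 and CXCR6, the receptors with the widest ratios among the 7 that did, were both lowest in the non-responder before therapy.

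**Figure D1:**
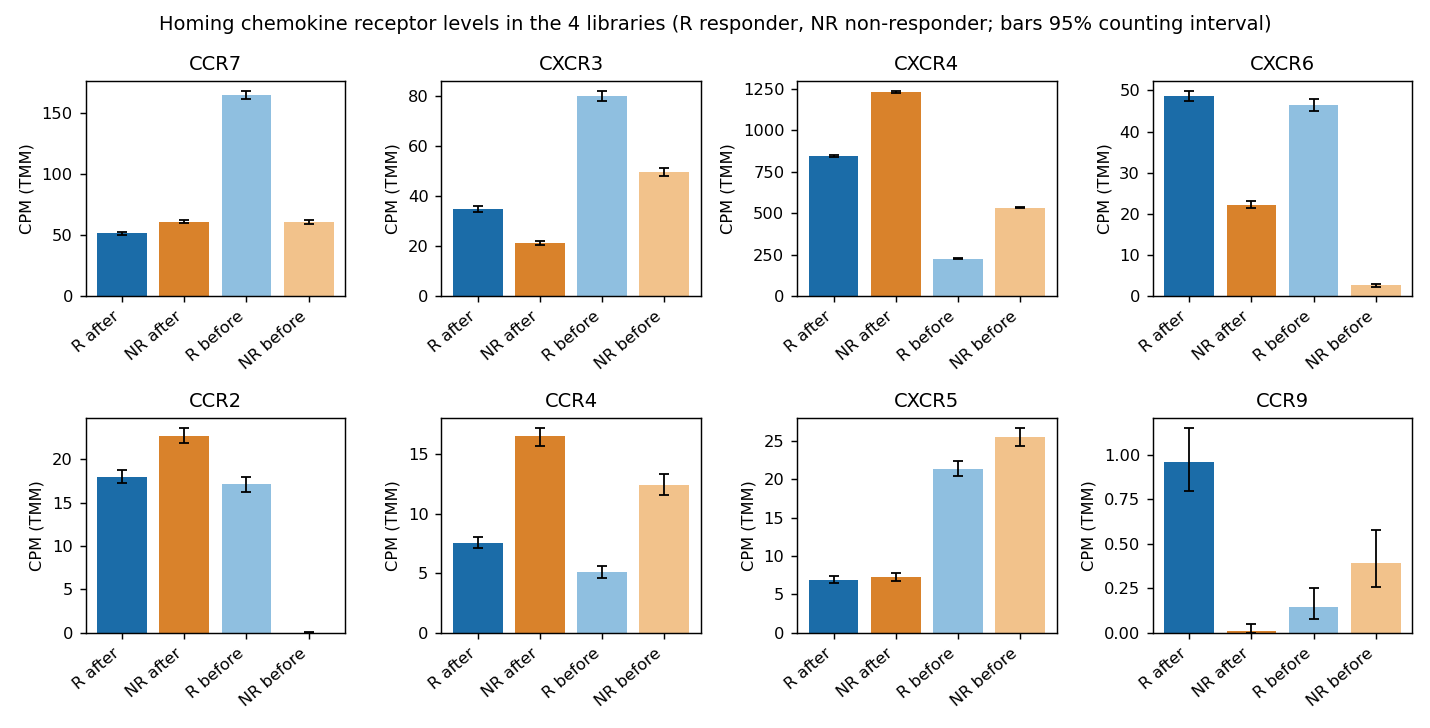
Levels of the 8 receptors in CPM (vertical axes, linear, each with its own range) in the responder (R) and non-responder (NR) libraries after and before therapy; bars are single libraries and whiskers are 95% counting intervals. CCR2 has no count in the non-responder before therapy, CXCR4 is higher in both libraries after therapy than in both before, and CXCR3 and CXCR5 are lower.

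CCR7, the receptor for CCL19 and CCL21, lies on chromosome 17 from 40553769 to 40565472 of hg38 (ENSG00000126353). It stood at 51.4 CPM (95% interval 50.1 to 52.6) in the responder after, 61.1 CPM (59.7 to 62.6) in the non-responder after, 165 CPM (162 to 168) in the responder before and 60.7 CPM (58.9 to 62.6) in the non-responder before. The responder before therapy was thus high and the other 3 libraries lay close together. Responder over non-responder was -0.25 on the log2 scale after therapy and 1.44 before, when the responder stood 2.72-fold higher. After over before was -1.69 in responders, a 3.22-fold lower level, and 0.01 in non-responders with an interval of -0.05 to 0.06. In RNA from sorted cells in bulk, fewer cells of a type and less RNA per cell cannot be told apart.

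Markers of other cells that can carry CCR7 were set beside it. Dendritic cell markers summed to 26.2 CPM in the responder after, 181 CPM in the non-responder after, 16.6 CPM in the responder before and 21.7 CPM in the non-responder before, with CLEC10A, CLEC9A, FLT3 and CCL22 at 0 where CCR7 was highest. CD79B, a B cell receptor subunit, stood at 7.85, 12.2, 28.5 and 11.3 CPM in that order, highest in the library where CCR7 was highest, while MS4A1, which encodes CD20, stood at 77.5, 55, 25.1 and 31.9 CPM. Epithelial markers, which do not belong to blood, summed to 2.58, 3.49, 217 and 14.5 CPM, with none at 0 in the responder before. The part of these cells in the CCR7 level of that library was not tested.

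Among 12 genes that accompany CCR7 in naive and central memory T cells, TCF7 and LEF1 included, all 12 reached 5 CPM in each pair. In the responder against the non-responder, 0 were higher and 1 lower after therapy, beside 5.97% and 8.74% of all genes, and 2 were higher and 0 lower before therapy, beside 12.3% and 8.51%. Counts this small are near those shares. IL7R, the interleukin-7 receptor, stood at 474 CPM in the responder after against 326 CPM in the non-responder after, and at 287 CPM in the responder before against 143 CPM in the non-responder before. CD27, a costimulatory receptor, stood at 176 CPM in the responder before against 71.8 CPM in the non-responder before, and ACTN1, an actin crosslinker, at 24.5 CPM in the responder after against 52.7 CPM in the non-responder after. The median log2 ratio of the 12 genes in responders, after over before, was 0.25, beside -1.69 for CCR7.

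CXCR5, the receptor for CXCL13 on follicular T cells and B cells, lies on chromosome 11 from 118883766 to 118897799 (ENSG00000160683). It stood at 6.93 CPM in the responder after, 7.24 CPM in the non-responder after, 21.4 CPM in the responder before and 25.5 CPM in the non-responder before. Both libraries after therapy were low and both before were high, with no overlap of their counting intervals. After over before was -1.63 (-1.74 to -1.51) in responders and -1.82 (-1.94 to -1.69) in non-responders, 3.09-fold and 3.52-fold lower. Responder over non-responder was -0.06 after therapy, with an interval of -0.20 to 0.08 that includes 0, and -0.25 before.

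Part of the CXCR5 entry, 3925 of its 14034 bases, overlaps that of BCL9L, which stood at 12.2, 11.6, 28.1 and 34.7 CPM in the same order of libraries and so was also lower after therapy. Whether the reads were counted by strand is not given, so reads of the shared bases cannot be assigned to either gene. The B cell markers summed to 110, 82.3, 78.1 and 52.3 CPM in the same order of libraries, with CD79B as given above. PAX5 was at 0 in the responder after, and VPREB3 and FCRLA at 0 in the non-responder before. The part of B cell RNA in the CXCR5 levels was not tested.

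Of 7 genes that accompany CXCR5 in follicular T cells, 5 reached 5 CPM in the responder pair over time. Of them 2 were higher and 1 lower after therapy, beside 8.64% and 4.61% of all genes. BCL6, the transcriptional repressor of follicular helper cells, stood at 20.6 CPM in the responder after, 60.5 CPM in the non-responder after, 6.52 CPM in the responder before and 22.5 CPM in the non-responder before, so that it was higher after therapy while CXCR5 was lower. SH2D1A, the adaptor SAP, was likewise higher after therapy, at 278 CPM in the responder after, 107 CPM in the non-responder after, 120 CPM in the responder before and 52.5 CPM in the non-responder before. ID3, an inhibitor of E proteins, followed the direction of CXCR5, with 0.626, 1.5, 5.14 and 8.21 CPM.

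CXCR3, the receptor for the interferon-induced chemokines CXCL9, CXCL10 and CXCL11, lies on the X chromosome from 71615916 to 71618517 (ENSG00000186810). It stood at 34.8 CPM (33.7 to 35.8) in the responder after, 21.2 CPM (20.4 to 22.1) in the non-responder after, 79.8 CPM (77.9 to 81.7) in the responder before and 49.4 CPM (47.7 to 51.1) in the non-responder before. The responder stood higher at both times, and both libraries after therapy stood lower than both before. Responder over non-responder was 0.71 after and 0.69 before, 1.64-fold and 1.61-fold, which is under 2-fold at each time. After over before was -1.20 (-1.25 to -1.14) in responders and -1.22 (-1.30 to -1.14) in non-responders. CXCR3 thus had nearly the same ratio in each pair of either kind.

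All 10 genes listed as type 1 partners of CXCR3, the programme of interferon-gamma-producing T cells, reached 5 CPM. After over before in responders, 2 were higher and 1 lower, beside 8.64% and 4.61% of all genes, with a median of 0.12. In non-responders 4 were higher and 0 lower, beside 16.3% and 7.56%, with a median of 0.29. TBX21, which encodes T-bet, ranged from 175 to 251 CPM. EOMES, its paralogue, stood at 360 CPM in the responder after, 221 CPM in the non-responder after, 209 CPM in the responder before and 93.6 CPM in the non-responder before. IL18R1, an interleukin-18 receptor chain, had 55.3, 39.5, 21.8 and 14.3 CPM in the same order. IFNG, the cytokine gene, had 22.7 CPM in the responder after against 84.5 CPM in the non-responder after, and 55.5 CPM in the responder before against 102 CPM in the non-responder before. The partners with the widest response ratios therefore included genes on the side of the responder and IFNG on that of the non-responder.

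CXCR6, the receptor for CXCL16 on tissue-resident and liver-homing T cells, lies on chromosome 3 from 45940933 to 45948353 (ENSG00000172215). It stood at 48.6 CPM (47.4 to 49.8) in the responder after, 22.2 CPM (21.3 to 23.1) in the non-responder after, 46.5 CPM (45.1 to 48) in the responder before and 2.55 CPM (2.18 to 2.96) in the non-responder before. The 2 responder libraries lay close together, and the non-responder before therapy was far below the rest on 169 counts. Responder over non-responder was 1.13 (1.06 to 1.20) after and 4.19 (3.97 to 4.42) before, or 2.19-fold and 18.2-fold higher. After over before was 0.06 (0.00 to 0.12) in responders and 3.12 (2.90 to 3.35) in non-responders, where the level after therapy was 8.68-fold higher.

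The CXCR6 entry lies wholly inside that of FYCO1, a gene of autophagosome transport, which stood at 41.1 CPM in the responder after, 32 CPM in the non-responder after, 20 CPM in the responder before and 29 CPM in the non-responder before. FYCO1 was not low in the non-responder before therapy. Among 9 genes listed as tissue residence partners of CXCR6, 8 reached 5 CPM. Before therapy 2 were higher and 0 lower in the responder than in the non-responder, beside 12.3% and 8.51% of all genes. CD101, an inhibitory surface protein of resident cells, stood at 28.8, 19.3, 36.7 and 4.26 CPM in the responder after, the non-responder after, the responder before and the non-responder before, so that its lowest library was that of CXCR6. CRTAM, an adhesion molecule of activated CD8+ T cells, had 69.9, 52.9, 73.7 and 33.5 CPM. ZNF683, which encodes the residence factor Hobit, was lower after therapy in each pair, with 43.3 CPM in the responder after against 227 CPM in the responder before and 59.6 CPM in the non-responder after against 160 CPM in the non-responder before. ITGAE, the CD103 integrin, ranged from 29.5 to 35.7 CPM and did not share the low value of CXCR6.

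CCR2, the receptor for CCL2 and related chemokines, is found on monocytes and on some effector memory T cells, and lies on chromosome 3 from 46353734 to 46360928 (ENSG00000121807). It stood at 18 CPM (17.3 to 18.7) in the responder after, 22.7 CPM (21.9 to 23.6) in the non-responder after and 17.1 CPM (16.2 to 18) in the responder before. In the non-responder before therapy it had 0 of 65500644 counts. With that library set at the floor of 3 counts, or 0.0452 CPM, the difference was at least 377-fold for the responder over the non-responder before therapy, and at least 503-fold for after over before in non-responders. In the other pairs the difference was small, -0.34 (-0.42 to -0.26) for the responder against the non-responder after therapy and 0.08 (-0.02 to 0.17) for after over before in responders.

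A full loss of counts was rare in that library. Of 10648 genes that reached 5 CPM in each of the other 3 libraries, 5 had no count in the non-responder before, or 0.047%, and 50 lay at least 8-fold under their lowest other value, or 0.47%. The same measures gave 0 and 1 genes of 10340 for the responder after, 0 and 5 of 10382 for the non-responder after, and 0 and 2 of 10309 for the responder before. The monocyte marker sum was highest at 8460 CPM in the non-responder after, where CCR2 stood at 22.7 CPM. It was 1781 CPM in the responder after, where CCR2 stood at 18 CPM. Before therapy it was 96.5 CPM in the responder, where CCR2 stood at 17.1 CPM. In the non-responder before it was 152 CPM, where CCR2 had no count. The part of monocyte RNA in the CCR2 levels was not tested.

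CCR2, CXCR6 and CCR9 lie in one cluster of receptor genes on chromosome 3, with 37.8 kb between CCR9 and CXCR6 and 405 kb between CXCR6 and CCR2, and CCR4 lies elsewhere on that chromosome. Within a window from 45786504 to 46460928, 100 kb beyond the outer members, 7 genes reached 5 CPM in some library; the window was drawn after the values were seen and gets no test. Before therapy, of the 6 that reached 5 CPM in that pair, 5 were higher in the responder than in the non-responder and 0 lower. CXCR6 and CCR2, whose low values were already known, are among these 5 and also enter the median. The shares of all genes were 12.3% and 8.51%, and the median log2 ratio of the 6 was 3.59. After therapy 2 of 7 were higher and 1 lower, beside 5.97% and 8.74%, with a median of 0.21. CCR1, a receptor of monocytes and memory T cells, stood at 7.82, 27.5, 8.16 and 1.58 CPM in the responder after, the non-responder after, the responder before and the non-responder before, and CCRL2, an atypical receptor, at 9.91, 9.24, 7.53 and 0.121 CPM. FYCO1, in the same window, did not take that course, as given above.

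CXCR6 and CCR2 are also carried by mucosal-associated invariant T (MAIT) cells, which are CD8+ for the most part and recognise vitamin B metabolites. Of 10 MAIT cell markers, 9 reached 5 CPM in the pair before therapy, and 5 were higher and 0 lower in the responder than in the non-responder, beside 12.3% and 8.51% of all genes. After therapy 0 of 10 were higher and 6 lower, beside 5.97% and 8.74%. SLC4A10, a transporter that marks these cells closely, stood at 7.61 CPM in the responder after, 16.5 CPM in the non-responder after, 20.3 CPM in the responder before and 3.35 CPM in the non-responder before. CCR6, a receptor for mucosal homing, had 6.61, 13.7, 7.8 and 0.542 CPM in the same order, and LTK, a receptor kinase, had 2.66, 10.6, 8.04 and 1.31 CPM. These genes shared with CXCR6 and CCR2 the low value in the non-responder before therapy. After therapy they stood lower in the responder, as CCR2 did at 18 against 22.7 CPM, whereas CXCR6 stood higher. ZBTB16, which encodes PLZF, and RORA were not low in the non-responder before, at 25.2 and 291 CPM. No marker was at 0 in any library. The sums over the 10 were 358, 577, 477 and 463 CPM, of which RORA alone gave 185, 318, 196 and 291 CPM. The part of MAIT cells in the CXCR6 and CCR2 levels was not tested.

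**Figure D2:**
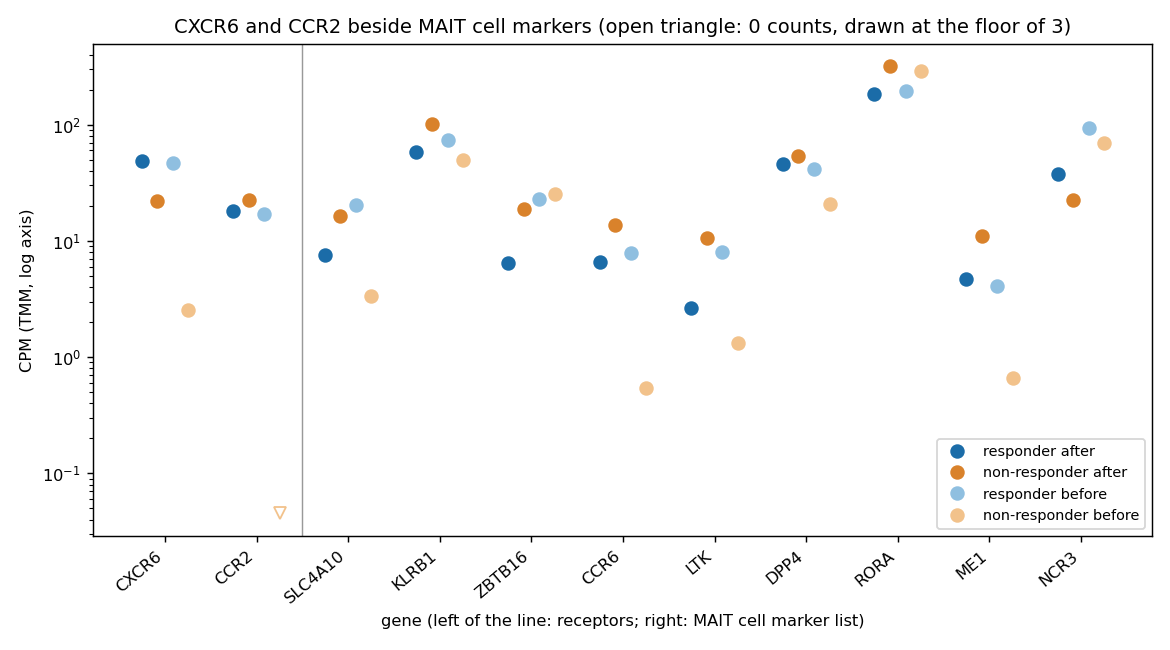
Levels of CXCR6 and CCR2 and of 9 of the MAIT cell markers in CPM (log axis) in the 4 libraries; each point is 1 library, and the open triangle is a count of 0 drawn at the floor of 3 counts. The non-responder before therapy is lowest for both receptors and for SLC4A10, KLRB1, CCR6, LTK, DPP4 and ME1, but not for ZBTB16, RORA or NCR3.

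CCR4, the receptor for CCL17 and CCL22, lies on chromosome 3 from 32951574 to 32956349 (ENSG00000183813). It stood at 7.57 CPM (7.1 to 8.06) in the responder after, 16.5 CPM (15.7 to 17.2) in the non-responder after, 5.08 CPM (4.61 to 5.59) in the responder before and 12.4 CPM (11.6 to 13.3) in the non-responder before. The responder was below the non-responder at both times, with no overlap of the counting intervals between the 2 responder and the 2 non-responder libraries. Responder over non-responder was -1.12 (-1.24 to -1.01) after and -1.29 (-1.47 to -1.12) before, 2.18-fold and 2.45-fold lower. After over before was 0.57 in responders and 0.40 in non-responders, 1.49-fold and 1.32-fold higher.

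CCR4 is typical of helper type 2 and regulatory CD4 T cells. Markers of CD4 and regulatory T cells summed to 50.3 CPM in the responder after against 130 CPM in the non-responder after, and to 27 CPM in the responder before against 25.6 CPM in the non-responder before. Before therapy the members of that list went both ways, with FOXP3, the regulatory T cell factor, at 2.03 CPM in the responder before against 3.62 CPM in the non-responder before, and CD40LG, a helper T cell ligand, at 5.17 against 2.5 CPM. ANKRD55 stood at 0.35 CPM in the responder before against 0.844 CPM in the non-responder before, and at 0 in the responder after. The part of such cells in the CCR4 levels was not tested. Of 8 type 2 and skin-homing partners, 4 reached 5 CPM before therapy. Of them 1 was higher and 1 lower in the responder, beside 12.3% and 8.51% of all genes. GATA3, the type 2 transcription factor, stood at 64 CPM in the responder before against 149 CPM in the non-responder before, and at 84.9 CPM in the responder after against 82 CPM in the non-responder after. SELPLG, whose product carries the selectin ligand of skin-homing cells, stood at 718 CPM in the responder after against 360 CPM in the non-responder after, and at 862 CPM in the responder before against 328 CPM in the non-responder before. PTGDR2, the prostaglandin receptor CRTH2, had 2.25, 3.31, 6.34 and 5.44 CPM in the responder after, the non-responder after, the responder before and the non-responder before.

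CCR9, the receptor for CCL25 of the small intestine, lies on chromosome 3 from 45886504 to 45903177 (ENSG00000173585). It was scarce, with 0.959 CPM on 121 counts in the responder after, 0.00896 CPM on 1 count in the non-responder after, 0.145 CPM on 12 counts in the responder before and 0.392 CPM on 26 counts in the non-responder before. The log2 ratio of the responder over the non-responder after therapy, 6.16, had a counting interval of 4.24 to 12.06 because it rests on that 1 count, and before therapy it was -1.40 (-2.56 to -0.40). The whole CCR9 entry lies inside that of LZTFL1, a gene of ciliary transport with 9.94, 8.59, 4.37 and 0.467 CPM in the same order, so a few reads of LZTFL1 could not be told from CCR9 without strand. The 2 subunits of the gut-homing integrin were abundant by comparison. ITGA4 stood at 685 CPM in the responder after, 401 CPM in the non-responder after, 363 CPM in the responder before and 285 CPM in the non-responder before, and ITGB7 at 509, 312, 678 and 508 CPM. RARA, the retinoic acid receptor that induces gut homing, had 9.87, 19, 5.87 and 8.45 CPM. Of the 3 gut partners that reached 5 CPM, 0 were past 2-fold between responder and non-responder at either time. Of all genes, 5.97% were higher and 8.74% lower in the responder after therapy, and 12.3% and 8.51% before.

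CXCR4, the receptor for CXCL12, lies on chromosome 2 from 136114349 to 136118165 (ENSG00000121966). It stood at 845 CPM (840 to 850) in the responder after, 1229 CPM (1223 to 1236) in the non-responder after, 225 CPM (221 to 228) in the responder before and 534 CPM (529 to 540) in the non-responder before. Both libraries after therapy lay above both before, and the responder lay below the non-responder at each time. After over before was 1.91 (1.89 to 1.93) in responders and 1.20 (1.19 to 1.22) in non-responders, 3.76-fold and 2.3-fold higher. Responder over non-responder was -0.54 (-0.55 to -0.53) after and -1.25 (-1.28 to -1.22) before, 1.46-fold and 2.38-fold lower.

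CXCR4 transcription is induced by glucocorticoids, hypoxia and handling stress, and 12 genes of those responses were followed, all at 5 CPM or more. In responders 5 were higher and 0 lower after than before therapy, beside 8.64% and 4.61% of all genes. In non-responders likewise 5 were higher and 0 lower, beside 16.3% and 7.56%. In the responder against the non-responder, 0 were higher and 5 lower after therapy, beside 5.97% and 8.74%, with a median of -0.96. Before therapy 1 was higher and 8 lower, beside 12.3% and 8.51%, with a median of -1.36. DUSP1, a phosphatase of the immediate early response, stood at 734 CPM in the responder after, 4203 CPM in the non-responder after, 511 CPM in the responder before and 1282 CPM in the non-responder before. ZFP36, which destabilises cytokine transcripts, had 331, 1224, 176 and 643 CPM. PER1, a clock gene that glucocorticoids induce, had 24.9 CPM in the responder after against 257 CPM in the non-responder after and 25.5 CPM in the responder before against 195 CPM in the non-responder before. PER1 thus differed by response at each time but hardly by time within responders, unlike CXCR4. FKBP5, a classical glucocorticoid target chosen after its values were seen, stood at 221, 152, 104 and 27.2 CPM. It was higher in the responder at both times, opposite to CXCR4, but higher after therapy in both groups, as CXCR4 was. TSC22D3, on the same list and also chosen after its values were seen, stood at 1653, 4621, 1014 and 2152 CPM. Its ratio had the direction of CXCR4 in each pair. The same held for DUSP1, ZFP36, ZFP36L2, BTG1, BTG2 and HIF1A of that list. NR3C1, KLF6, PDE4B, PER1 and FKBP5 departed from that direction in some pair. Monocytes also express CXCR4 and DUSP1, and the monocyte marker sum was higher in both libraries after therapy than in both before. Its part in the CXCR4 levels was not tested.

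Compared per kilobase of the gene length given in the tables, CXCR4 led in every library, at 380 CPM per kb in the responder after, 553 in the non-responder after, 101 in the responder before and 240 in the non-responder before. That was 86.1%, 91%, 43.3% and 79.7% of the per-length sum of the 8 receptors. CCR7 and CXCR3 took the next places in all 4 libraries, with CCR7 ahead in 3 of them. In the non-responder before therapy CXCR3 was ahead, at 26.5 CPM per kb against 24.2 for CCR7. The lower places changed between libraries. CXCR6 came next with 12.9 CPM per kb in the responder after and 12.3 in the responder before, but stood at 0.676 in the non-responder before, under CXCR5 at 5.75 and CCR4 at 4.02. Neighbours in this order were apart beyond counting error except CCR2 and CXCR6 in the non-responder after, at 6.09 and 5.88 CPM per kb, and CXCR5 and CCR2 in the responder before, at 4.82 and 4.57.

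**Figure D3:**
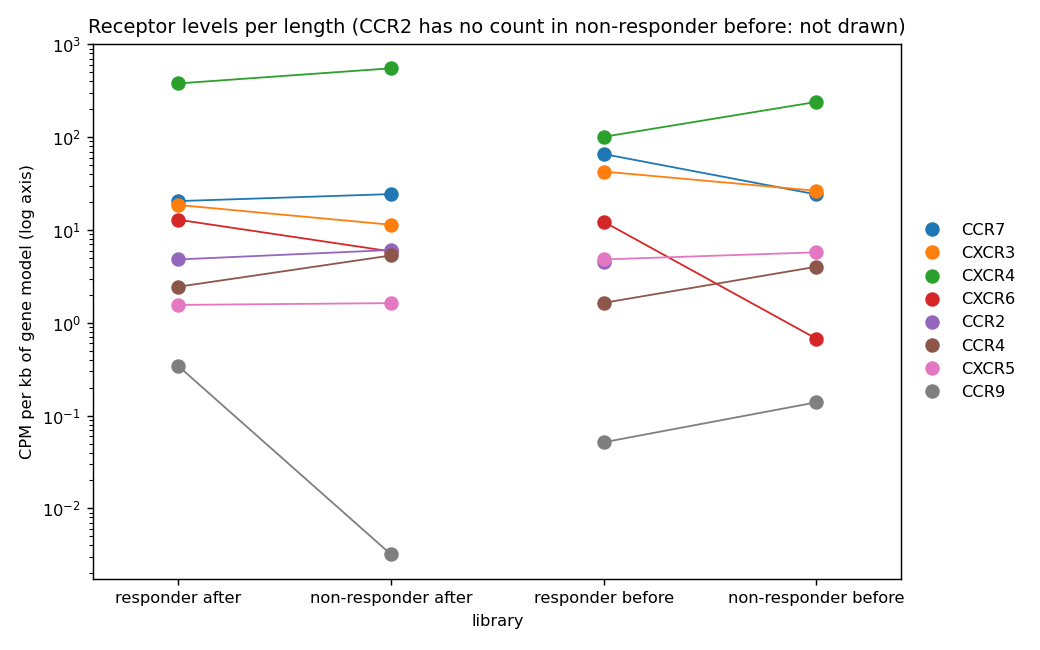
Levels of the 8 receptors per kilobase of gene length (CPM per kb, log axis) in each library; lines join the responder and non-responder libraries of the same time and carry no model. CXCR4 is on top throughout, and CXCR6 at 0.676 in the non-responder before therapy stands apart from its 5.88 to 12.9 in the other 3 libraries.

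Across pairs, 7 of the 8 receptors reached 5 CPM in each, all but CCR9. In the responder against the non-responder after therapy, 1 of the 7 was at least 2-fold higher, CXCR6, and 1 at least 2-fold lower, CCR4, beside 5.97% and 8.74% of all genes with 5 CPM. Before therapy 3 were higher, CCR2, CCR7 and CXCR6, and 2 lower, CCR4 and CXCR4, beside 12.3% and 8.51% of all genes. The median log2 ratio over the 8 receptors was -0.16 after and 0.22 before therapy, beside 0.08 and 0.09 over all genes. Before therapy 4 receptors had a ratio above 0 and 4 below 0, and after therapy 3 and 5.

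**Figure D4:**
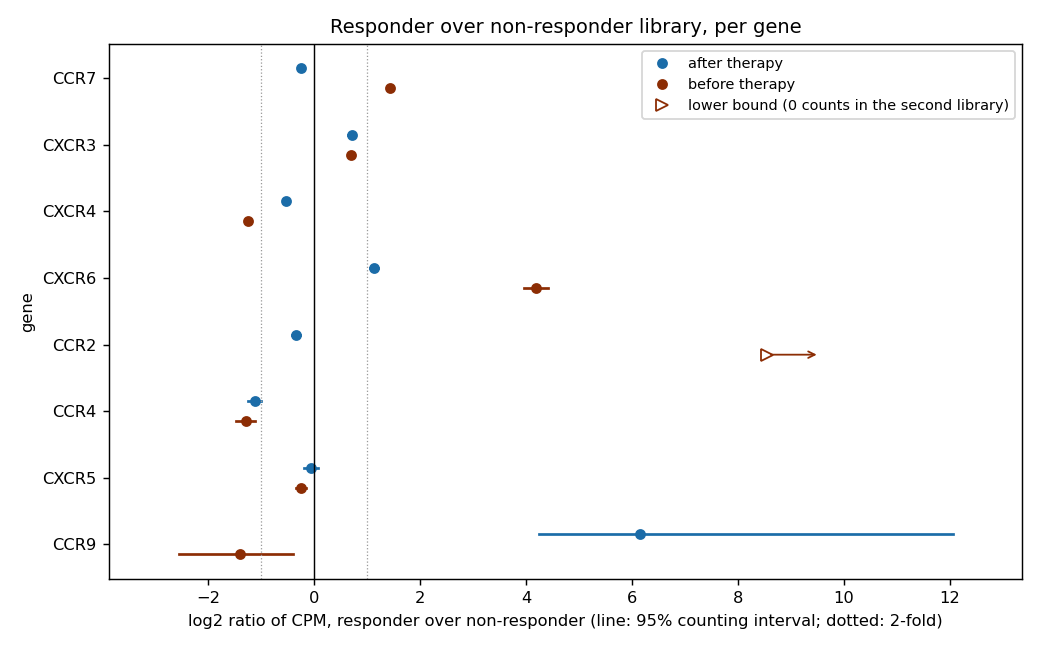
Responder over non-responder log2 ratio (horizontal axis) for each receptor after and before therapy; points are ratios of single libraries, lines are 95% counting intervals (hidden by the point where short), dotted lines mark 2-fold, and the open triangle with an arrow is the lower bound for CCR2. CXCR3 and CCR4 keep nearly the same ratio at both times, whereas CCR7 is at 1.44 before and -0.25 after.

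After against before therapy, 1 receptor was at least 2-fold higher in responders, CXCR4, and 3 lower, CCR7, CXCR3 and CXCR5, beside 8.64% and 4.61% of all genes. In non-responders 3 were higher, CCR2, CXCR4 and CXCR6, and 2 lower, CXCR3 and CXCR5, beside 16.3% and 7.56% of all genes. CXCR4, CXCR3 and CXCR5 thus passed 2-fold the same way in responders and non-responders. Under upper-quartile scaling the CXCR4 log2 ratio in non-responders was 0.96, just short of 2-fold, and 4 receptors passed there in place of 5. The median log2 ratio over the 8 receptors was 0.07 in responders and 0.21 in non-responders, beside 0.08 and 0.10 over all genes. The comparisons share libraries, so their ratios are not independent of each other.

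**Figure D5:**
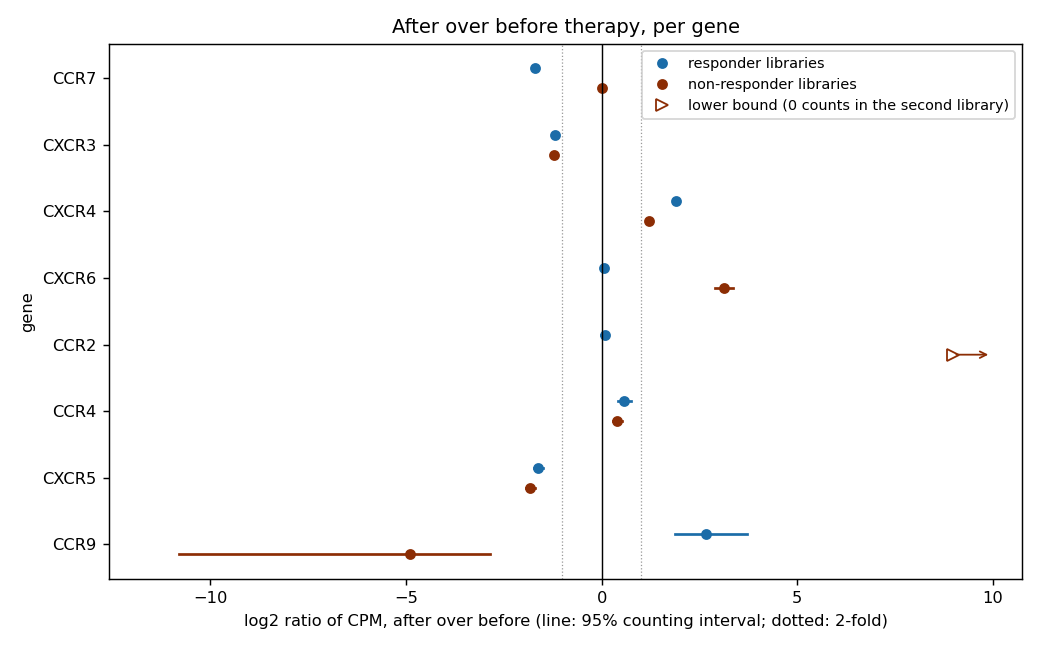
After over before log2 ratio (horizontal axis) for each receptor in the responder and the non-responder libraries, drawn as in the plot by response. CXCR3 and CXCR5 lie left of the lower 2-fold line and CXCR4 right of the upper one for both, whereas CCR7 is at -1.69 in responders and 0.01 in non-responders.

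A model with response and time as additive terms over all 4 libraries, fitted to all genes with edgeR's quasi-likelihood test, uses the disagreement between pairs as its error and has 1 residual degree of freedom. After Benjamini-Hochberg adjustment over 24113 genes it called 0 genes (0%) for response and 0 (0%) for time, so none of the 8 receptors. At an unadjusted p under 0.05 it listed 2152 genes for response and 2742 for time. Among the receptors 4 had such a p for response, 2 higher and 2 lower. CXCR4 had a fitted ratio of -0.90 ± 0.25 (SE; edgeR unadjusted p = 0.0244, adjusted p = 0.548), CCR4 of -1.21 ± 0.35 (adjusted p = 0.548), CXCR3 of 0.70 ± 0.21 (adjusted p = 0.548) and CXCR6 of 2.64 ± 0.93 (adjusted p = 0.558). For time 3 had an unadjusted p under 0.05, CXCR4 at 1.56 ± 0.25, CXCR3 at -1.21 ± 0.21 and CXCR5 at -1.72 ± 0.31, each with an edgeR adjusted p of 0.407. With 1 library left out and response fitted alone, CXCR4 came to -0.01 without the non-responder after and -0.06 without the responder before, and CXCR6 to 1.09 without the non-responder before and 4.21 without the non-responder after. For CCR7 the pairs disagreed, and its fitted time ratio was -0.84 ± 0.49 with an edgeR adjusted p of 0.575.

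DESeq2 on the same design called 950 of 21245 genes for response (4.47%) and 1554 of 20568 for time (7.56%). CXCR6 (2.63, DESeq2 adjusted p = 0.00272) and CXCR4 (-0.92, DESeq2 adjusted p = 0.0496) were among those for response. CXCR4, CXCR5 and CXCR3 were among those for time, with DESeq2 adjusted p of 2.53e-05, 0.000653 and 0.00248. Limma-voom called 0 genes for response and 2 for time, neither a receptor of the 8. All p-values here describe the spread among 4 single libraries and not that among patients of a group.

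The 14 other chemokine receptors on the list included several with large differences. Of 7 that reached 5 CPM before therapy, 6 passed 2-fold upwards in the responder over the non-responder and 0 downwards. The shares of all genes were 12.3% and 8.51%, and the median log2 ratio of the 7 was 3.77. After therapy 4 of 8 were higher and 2 lower, beside 5.97% and 8.74%, with a median of 0.96. CXCR1 and CXCR2, interleukin-8 receptors of neutrophils and of cytotoxic lymphocytes, had levels of 5.09 and 9.01 CPM in the responder after, 0.869 and 3.49 CPM in the non-responder after, 15.1 and 25.6 CPM in the responder before, and 0.0301 and 1.87 CPM in the non-responder before. Neutrophil markers summed to 98.4, 332, 50.8 and 41.7 CPM in that order. CSF3R and S100A12, which monocytes also express, had 193 and 95.3 CPM of the sum in the non-responder after. The markers were highest in different libraries. FCGR3B, the neutrophil Fc receptor, stood at 32.2, 12.8, 35.9 and 16.7 CPM, highest in the responder before, as CXCR1 and CXCR2 were. PROK2, at 13.3, 4.72, 8.64 and 18.2 CPM, was highest in the non-responder before. MMP9 was highest in the responder after, at 0.848 CPM, and CXCL8 in the non-responder after, at 25.1 CPM. The part of neutrophil RNA in the levels of CXCR1 and CXCR2 was not tested. Both were lowest in the non-responder before therapy, as CXCR6 and CCR2 were.

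Most ligands of the 8 receptors had few or no counts. Of 15 ligand genes, 11 were at 0 in the responder after, 13 in the non-responder after, 4 in the responder before and 8 in the non-responder before, and the floor of 3 counts lies at 0.0238, 0.0269, 0.0362 and 0.0452 CPM in that order of libraries. CXCL16, the ligand of CXCR6 and a product of monocytes and dendritic cells, stood at 13.4, 53.4, 6.58 and 2.43 CPM in that order, beside the monocyte marker sums of 1781, 8460, 96.5 and 152 CPM. CXCL9 and CXCL10, ligands of CXCR3, stood at 0.7 and 1.59 CPM in the responder before against 7.76 and 6.8 CPM in the non-responder before, their highest values.

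All 26 genes of receptor signalling and migration reached 5 CPM after therapy, and 0 were higher and 2 lower in the responder than in the non-responder, beside 5.97% and 8.74% of all genes. Before therapy 1 of 25 was higher and 0 lower, beside 12.3% and 8.51%, and the medians were 0.19 and 0.26. ADRBK2, a kinase that desensitises receptors, was lower in the responder at 4.18 CPM after against 28.9 CPM in the non-responder after, and CDC42, a GTPase of cell polarity, at 131 against 328 CPM. ARRB1, the beta-arrestin 1 gene, was higher in the responder before at 15.5 CPM, against 5.62 CPM in the non-responder before. GNAI2, the main inhibitory G protein subunit of lymphocytes, ranged from 635 to 723 CPM.

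Of 11 genes that regulate receptor signalling or retention at the surface, 10 reached 5 CPM. Before therapy 1 was higher and 3 lower in the responder, beside 12.3% and 8.51% of all genes. After therapy 1 was higher and 1 lower, beside 5.97% and 8.74%. RGS1 and RGS2, which end G protein signalling, stood at 35.4 and 95 CPM in the responder before against 201 and 298 CPM in the non-responder before, and at 130 and 214 CPM in the responder after against 164 and 465 CPM in the non-responder after. S1PR1, the receptor for exit from tissue, stood at 158 CPM in the responder before against 42.4 CPM in the non-responder before, and at 146 CPM in the responder after against 83.1 CPM in the non-responder after.

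The genes of nearest profile were found from the distance between log2 levels over the 4 libraries, each gene centred on its own mean, among 11581 genes, and with 4 points many genes match by number alone. CXCR4 was nearest to LATS2 and ZFP36L2, at distances of 0.12 and 0.13, with 30 genes within 0.5. CXCR3 was nearest to GINS4 and TYMS, at 0.03 and 0.16, CXCR5 to HCG27 and TRAIP, at 0.06 and 0.08, and CCR4 to ZFAND5 and CHD1, at 0.03 and 0.08, with 61, 35 and 115 genes within 0.5. CCR7 had 15 genes within that distance, led by TM7SF2 and SLC29A1, both at 0.18. CXCR6 had 8, led by LPAL2 at 0.09 and ASB2 at 0.13, and ASB2 stood at 7.67, 3.43, 7.62 and 0.362 CPM in the responder after, the non-responder after, the responder before and the non-responder before. CCR2 had 0 within 0.5, and its nearest genes HYAL2 and ZNF607, at 0.86 and 1.33, had no count in that library either, the non-responder before therapy.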

How the data were processed

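Raw counts per Ensembl gene were deposited by the authors, 1 table per library, per the file headers and the whole-number values. Per the submitters' processing notes, bcl2fastq 1.8.4 made the reads and TopHat2 aligned them to hg38; which tool counted them, with which strand setting and annotation, is not given in the sources used here. The cDNA was amplified from very little RNA and no molecular identifiers are stated, so intervals and floors cover counting error only, and a count of 0 can come from a transcript that was not captured.

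Groups were taken from the group labels. Of 64253 entries, 4146 on alternate or unplaced contigs and 617 sex-informative genes were left out, leaving 59490, while totals include all counts. CPM were scaled with TMM in edgeR 4.0.16 (R 4.3.3). Ratios used a prior count of 0.5, exact conditional binomial intervals at 95%, a floor of 3 counts per library and a call at 2-fold and 5 CPM. The additive model of response and time (common biological coefficient of variation 0.66) used filterByExpr and edgeR's quasi-likelihood test, two-sided, with an adjusted p threshold of 0.05; the alternatives limma-voom (limma 3.58.1) and DESeq2 1.42.0 took the same model. CCR6 stands on 2 entries, and the shorter was used. The lengths are those of the tables, of which 34.2% are multiples of 3, so they are not coding lengths alone.

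The 8 receptors and the 21 gene lists (209 genes, all found) were chosen with earlier results of these data known. Named genes were all 8 members, up to 3 genes per list with at least 5 CPM and the largest mean absolute response ratio, any marker, and the 2 genes of nearest profile per member with at least 5 CPM in a library; other genes named were chosen after their values were seen. Alternatives covered scaling, prior count, minimum level, fold, filter, tool, a model of 1 factor and each library left out. A few genes of the lists are not reported here by name.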

Additional observations from a re-analysis of the deposited data

Results flagged for a closer look

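For 3 receptors the response ratio pointed opposite ways after and before therapy, beyond counting error in each pair; with 1 library per group these differences were not tested. CCR7 had a log2 ratio of the responder over the non-responder of -0.25 after therapy and 1.44 before, so that after minus before was -1.69. CCR2 had -0.34 after therapy and 8.56 before with the non-responder before set at the floor of 3 counts, which puts after minus before at -8.90. CCR9 had 6.74 after therapy and -1.44 before, computed without a prior count, a difference of 8.18 that rests on 1 count in the non-responder after.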

How the results depend on the processing

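No paired analysis was possible because the labels do not tie the libraries to the same patients and the groups share a single replicate number; the additive model already holds response and time together. Under library-size scaling, DESeq2 size factors, upper-quartile scaling and a prior count of 2, 0 of the called receptor ratios among 32 changed direction; the widest shifts were 0.11, 0.05, 0.25 and 2.00, the last for CCR2 against 0 counts. Upper-quartile scaling took CXCR4 in non-responders, after over before, from 1.20 to 0.96, under 2-fold. At 3-fold in place of 2-fold, 0 receptors were past it in the responder against the non-responder after therapy (2 at 2-fold). Before therapy 2 were past it (5 at 2-fold). After against before, 3 were past it in responders (4 at 2-fold) and 3 in non-responders (5 at 2-fold). The share of all genes past 3-fold was not taken, so these counts stand without it. The edgeR counts of 0 became 950 genes for response and 1554 for time in DESeq2, and 2 genes for time in limma-voom, 2 with no filter and 2 with at least 1 CPM in 2 libraries; the cause was not tested. With 1 library left out, response or time was fitted alone, since the additive model would have no residual degree of freedom. The fitted response ratio then ran from -0.39 to 13.65 for CCR2 (lowest without the non-responder before), -0.25 to 1.44 for CCR7 (lowest without the responder before), -0.45 to 5.77 for CCR9 (lowest without the responder after), -0.02 to 1.41 for CXCR3 (lowest without the responder before) and -1.24 to 0.94 for CXCR5 (above 0 without the responder after, at 0.39, and without the non-responder before). For CXCR4 it ran from -1.97 (without the responder after) to -0.01 (without the non-responder after), for CXCR6 from 1.09 to 4.21, and for CCR4 from -1.51 to -0.93. The fitted time ratio ran from -0.20 to 1.27 for CCR4 (below 0 without the non-responder after, and at -0.05 without the responder before), -4.70 to 1.84 for CCR9 (below 0 without the responder after, at 0.30 without the responder before and 1.76 without the non-responder before) and -0.37 to 3.80 for CXCR6 (below 0 without the non-responder before, and at -0.15 without the responder after). For CXCR4, CXCR3 and CXCR5 it ran from 0.96 to 2.24, -1.60 to -0.82 and -1.85 to -1.56, and for CCR7 from -1.52 to -0.11 (highest without the responder before). For CCR9 the time ratio was also 0.82 in limma-voom and 0.85 with time alone, against -0.93 in edgeR. Depth limits CCR9, with 1 to 121 counts; the other receptors had at least 169 counts in each library, other than CCR2 at 0.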
